A study of Petromyzon marinus with 17 samples.

Results

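Non-methylated islands (NMIs) of lamprey sperm were compared with those of adult muscle. For each tissue, the NMIs were the bases present in both replicate BioCAP lists, and overlapping or adjacent stretches of the 2 tissues were joined. This gave 156792 merged NMIs. A separate merge of all 6 tissues of the series gave 166793, in which neighbouring NMIs of sperm and muscle can be joined by those of another tissue. A merged NMI with such bases from both tissues was called shared (98617, or 62.9%), one with bases from sperm alone was called sperm-private (25383, or 16.2%), and one with bases from muscle alone was called muscle-private (32792, or 20.9%).

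The sea lamprey (Petromyzon marinus) is a jawless vertebrate. BioCAP was performed on sperm, muscle, day 1 embryos, day 2 embryos, brain and peripheral blood mononuclear cells (PBMCs), with 2 libraries each. Sperm, muscle, brain and PBMCs are labelled as adult, and the labels name no allele and no treatment in any group. The study describes the muscle replicates as including a male and a female fish, whereas sperm comes from males alone, so sex is not balanced between the tissues. The labels do not state whether the libraries came from separate animals, and p-values below measure the spread between these libraries.

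Most CpG sites of vertebrate genomes are methylated, and NMIs, also called CpG islands, are stretches that stay free of the mark and often lie at promoters and other regulatory elements. The study describes the lamprey as different from other vertebrates, with intermediate methylation at most of its CpG sites. BioCAP uses a CxxC zinc finger, taken from human KDM2B, that binds CpG sites only when they are unmethylated, to capture fragments of sonicated DNA, so that CpG-rich, unmethylated DNA is enriched. Sperm is a germline cell and muscle a somatic tissue. In lampreys, programmed genome rearrangement removes part of the germline genome from somatic cells during early embryogenesis, and the petMar3 assembly used by the authors is a germline assembly. At a place with a sperm NMI and no NMI in any adult somatic tissue, methylation and absence of the DNA in muscle therefore cannot be told apart from these lists. The study reports that the sequences it classed as eliminated were highly methylated in sperm, with depleted BioCAP signal. Whether the NMIs compared here overlap those sequences was not tested. Of the sperm-private NMIs, 31.9% were also found in brain, a somatic tissue. A place without an NMI is one at which no peak was called in these lists.

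Sperm libraries held 124181 and 141295 NMIs, and muscle libraries held 140638 and 141334. The mean was 132738 ± 12101 in sperm and 140986 ± 492 in muscle (SD, n = 2 each), a difference of -8248 (two-sided exact permutation test, p = 0.667). NMIs covered 84.3 ± 2.77 Mb in sperm and 79.0 ± 1.57 Mb in muscle (SD, n = 2 each), a difference of 5.25 Mb in which the libraries of the tissues did not overlap (exact permutation test, p = 0.333). With 2 libraries against 2, 0.333 is the smallest p that this test can give. The lists hold no read counts, so depth is unknown from them, and the mapping table of the study lists more read pairs for the muscle than for the sperm libraries.

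Bases common to both replicates formed 125193 stretches in sperm (76.9 Mb, median width 483 bp) and 135103 stretches in muscle (73.4 Mb, median width 427 bp). Of the sperm stretches, 79.7% overlapped a muscle stretch, and of the muscle stretches 75.7% overlapped a sperm stretch. The Jaccard index, the bases in both lists divided by the bases in either, was 0.839 between the sperm replicates and 0.867 between the muscle replicates. Between a sperm and a muscle library it was 0.595, 0.605, 0.584 and 0.599, with a mean of 0.596 ± 0.00890 (SD, n = 4 pairs that share libraries). All 4 values between the tissues lay below both values within a tissue. The mean within tissues exceeded the mean between tissues by 0.257 (one-sided exact permutation test over the 3 ways to pair 4 libraries, p = 0.333, the smallest possible).

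Which tissue had more private NMIs depended on how the lists were cut. As deposited, there were 0.774 sperm-private NMIs for each muscle-private one. When each library was reduced to the 124181 NMIs with the largest −log10 q-value, the length of the shortest of the 4 lists, 28649 sperm-private and 26405 muscle-private NMIs were found, a ratio of 1.08. With 89979 NMIs per library, the length of the shortest of all 12 lists, the counts were 21423 and 19110 and the ratio 1.12. At a stricter threshold, a −log10 q of at least 30, 24687 sperm-private and 14347 muscle-private NMIs were found, a ratio of 1.72. The classes were formed anew from each set of cut lists. An NMI that was shared as deposited can therefore become private where its peak in 1 tissue is cut. Shared NMIs fell from 98617 to 57531 at this threshold. Of the sperm-private NMIs as deposited, 30.0% and 42.6% reached it in sperm replicates 1 and 2. Without sperm replicate 1, the shortest of the 4 lists, there were 38113 sperm-private and 28491 muscle-private NMIs, a ratio of 1.34. Here all NMIs of sperm replicate 2 were set against the bases common to both muscle replicates, so the tissues were not treated alike. With 1 library of each tissue, compared by replicate number, the mean ratio was 0.864 ± 0.320 (SD, n = 2). The number of private NMIs in each tissue is thus given as a count of these lists and not as a difference between the tissues.

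**Figure D1:**
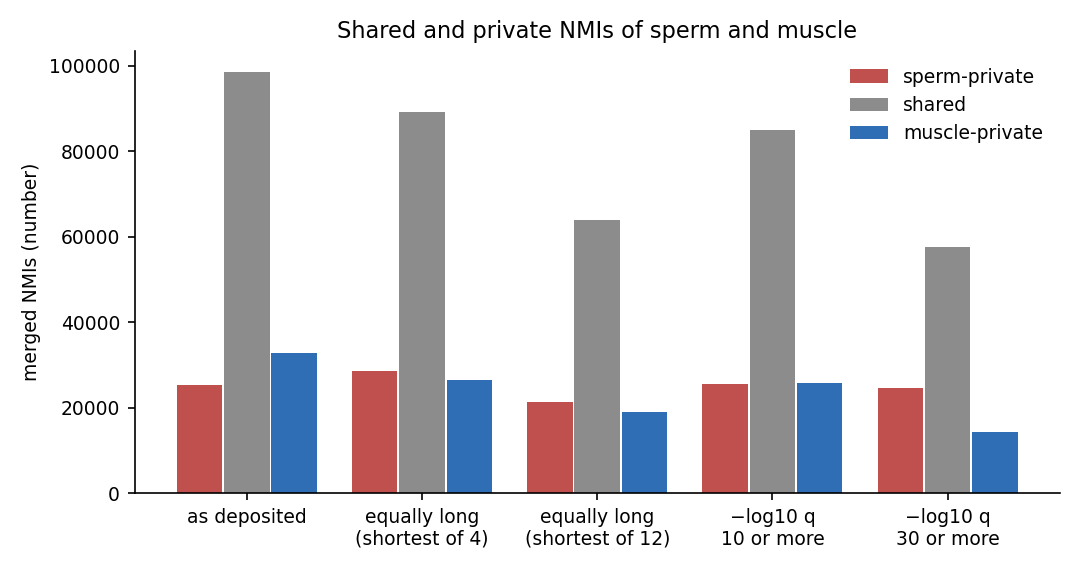
Number of merged NMIs that were sperm-private (red), shared (grey) and muscle-private (blue), for the lists as deposited, for equally long lists and for 2 stricter thresholds on −log10 q. Shared NMIs were the most frequent class in all 5 settings, whereas the order of the private classes changed. There were 25383 sperm-private and 32792 muscle-private NMIs as deposited, and 24687 and 14347 at a −log10 q of 30 or more. The classes were formed anew in each setting, so NMIs shared as deposited can become private after a cut.

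Private NMIs were narrow. Their median width was 340 bp in sperm (interquartile range 282 to 430 bp) and 335 bp in muscle (270 to 444 bp), against 568 bp for shared NMIs (426 to 854 bp). The width of a shared NMI is that of the joined stretches of both tissues, which adds to this difference. Within the sperm libraries, the medians were 372 and 377 bp for private and 580 and 565 bp for shared NMIs. Within the muscle libraries, they were 375 and 351 bp for private and 497 and 485 bp for shared NMIs. Only 1.58% of sperm-private and 1.97% of muscle-private NMIs were 1 kb or wider, against 17.8% of shared NMIs. They were also low. Fold enrichment is the height of a peak over its local background as the peak caller gives it. The median fold enrichment of sperm-private NMIs was 5.53 and 6.85 in sperm replicates 1 and 2, against 15.1 and 15.8 for shared NMIs in the same libraries. Muscle-private NMIs had medians of 7.72 and 7.48 in muscle replicates 1 and 2, against 12.5 and 12.8 for shared NMIs. A −log10 q of 30 or more was reached by 30.0% and 42.6% of the sperm-private NMIs, against 77.4% and 83.5% of shared NMIs in the sperm libraries. For muscle-private NMIs these shares were 37.7% and 34.4%, against 65.4% and 66.0% of shared NMIs in the muscle libraries. A shared NMI had to be called in all 4 libraries, whereas a peak near the calling threshold can be missed in the other tissue and counted as private. Width and height are therefore not independent of the class. The part of this rule in the differences was not tested.

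In 81.5% of the sperm-private NMIs (20680), neither muscle library held an NMI. Another 1900 overlapped an NMI of muscle replicate 1 alone and 2788 one of muscle replicate 2 alone. In 84.9% of the muscle-private NMIs (27848), neither sperm library held an NMI. Here 643 overlapped an NMI of sperm replicate 1 alone and 4297 one of sperm replicate 2 alone, the longer sperm list.

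The widest NMIs illustrate the 3 classes, and for the private ones those with no NMI in either library of the other tissue were taken. The widest of these sperm-private NMIs spanned 3075 bp on scaffold PIZI01000050v1 (5676342 to 5679416, petMar3). Its fold enrichment was 12.2 and 12.7 in the sperm libraries, and it was also called in both day 1 and both day 2 libraries but in no brain or PBMC library. A sperm-private NMI of 2584 bp on PIZI01000001v1 (12655591 to 12658174) had fold enrichments of 36.7 and 36.4, and was called in all 4 embryo libraries and in 1 brain library. The others of the 5 widest lay on PIZI01006375v1 (2891 bp), PIZI01000019v1 (2669 bp) and PIZI01000015v1 (2461 bp). Each was also called in every embryo library and in both brain libraries. Those on PIZI01000019v1 and PIZI01000015v1 were called in both PBMC libraries as well, and that on PIZI01006375v1 in neither. Among these 5, the NMI on PIZI01006375v1 had the lowest fold enrichments, at 2.16 and 1.92.

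The widest such muscle-private NMI spanned 3290 bp on PIZI01000098v1 (834464 to 837753). Its fold enrichment was 21.4 and 24.4 in the muscle libraries, and it was called in both brain and both PBMC libraries and in no embryo library. The next, 3207 bp on PIZI01000057v1 (2330812 to 2334018), had fold enrichments of 37.0 and 25.5 and was called in all brain and PBMC libraries and in 1 day 1 library. The others lay on PIZI01000050v1 (2878 bp), PIZI01000013v1 (2424 bp) and PIZI01000002v1 (2422 bp). All 5 were called in every brain and PBMC library. The NMI on PIZI01000002v1 was also called in every embryo library, and those on PIZI01000050v1 and PIZI01000013v1 in none.

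The widest shared NMI covered 9748 bp on PIZI01000016v1 (13482151 to 13491898). It was a single NMI of 9748 bp in each sperm library, with fold enrichments of 45.5 and 45.8. In muscle it consisted of 2 NMIs in each library, which covered 9500 and 9555 bp and reached fold enrichments of 23.3 and 21.7. The other 4 widest shared NMIs, on PIZI01000004v1, PIZI01000015v1, PIZI01000020v1 and PIZI01000122v1, were likewise 1 NMI in each sperm library and 2 to 5 NMIs in each muscle library.

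Shared NMIs extended further in sperm. Of the bases common to the sperm replicates, 56.9 Mb (74.0%) were also NMI in muscle, 10.03 Mb (13.0%) were edges of shared NMIs that reached beyond the muscle stretch, and 9.93 Mb (12.9%) were sperm-private. The same 56.9 Mb made up 77.6% of the muscle bases, whereas edges found in muscle alone took 3.44 Mb (4.69%) and muscle-private NMIs 13.0 Mb (17.7%). A shared NMI was a single stretch in each tissue in 94068 cases (95.4%). One sperm stretch corresponded to several muscle stretches in 3383 cases (3.43%), and several sperm stretches corresponded to 1 muscle stretch in 1094 cases (1.11%).

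At 93506 shared NMIs with exactly 1 NMI in each of the 4 libraries, the median width was 571 and 555 bp in sperm and 494 and 482 bp in muscle. The median of the difference, sperm minus muscle, was 53 bp (interquartile range -1 to 127.5 bp), compared with -15 bp between the sperm replicates and -5 bp between the muscle replicates (replicate 2 minus replicate 1). Both sperm libraries were wider than both muscle libraries at 53680 NMIs (57.4% of these regions), and the reverse held at 12316 (13.2%). At regions with a −log10 q of 30 or more in all 4 libraries, these shares were 56.0% and 11.7%. The −log10 q was also higher in sperm lists, with a median of 60.8 and 58.7 in the sperm libraries and 36.4 and 36.3 in the muscle libraries. Median fold enrichment differed less, at 12.1 and 11.4 in the sperm libraries and 10.5 and 10.6 in the muscle libraries. The part of signal or depth in the difference in width was not tested.

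The height of the NMI was compared at the 98617 shared NMIs, with limma on log2 fold enrichment after quantile normalization, which gives the 4 libraries the same distribution of values. Without this step, the median difference was 0.25 on the log2 scale in favour of sperm, and with it the median was -0.02. Across these NMIs, log2 fold enrichment correlated with r = 0.92 between the sperm replicates and 0.92 between the muscle replicates, and with r between 0.58 and 0.68 across tissues (across NMIs, which are not independent replicates). The normalized values differed by more than 2-fold between sperm and muscle means at 16.5% of shared NMIs. Between the replicates of sperm this was 1.80%, and between those of muscle 2.41%, although single libraries vary more than means.

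**Figure D2:**
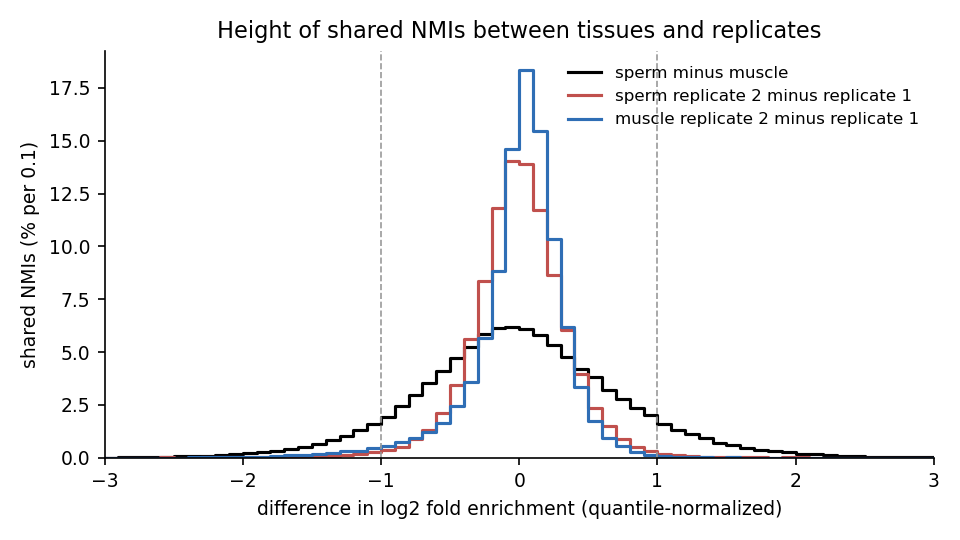
Distribution of the difference in quantile-normalized log2 fold enrichment over the 98617 shared NMIs, between the sperm and muscle means (black), the sperm replicates (red) and the muscle replicates (blue), as percent of NMIs per 0.1; dashed lines mark a 2-fold difference. The curve between tissues is broader, with 16.5% of NMIs beyond 2-fold against 1.80% and 2.41% between replicates.

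At an adjusted p under 0.05 (limma, Benjamini-Hochberg over all 98617 regions) and a fold over 2, 8185 shared NMIs were higher in sperm (8.3% of those tested) and 7213 were lower in sperm (7.31%). Without normalization, 13969 were higher and 4237 lower, so that the share of calls higher in sperm was 53.2% with and 76.7% without it. No NMI called with normalization had the opposite sign without it. The balance of the directions is therefore set by the scaling, and the direction of each called NMI is relative to the other shared NMIs.

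NMIs called higher in sperm had median fold enrichments of 21.3 and 21.9 in the sperm libraries and 6.12 and 6.74 in the muscle libraries. The largest difference was at PIZI01000006v1, 19582567 to 19583448, with fold enrichments of 60.9 and 59.5 in sperm, against 3.90 and 3.63 in muscle (log2 difference 3.74, SE 0.157, limma adjusted p = 0.0025). This NMI was called in all 4 embryo libraries, in 1 brain library and in no PBMC library. A second NMI on the same scaffold (18610175 to 18610795) had 45.4 and 41.8 in sperm and 3.10 and 3.56 in muscle. One on PIZI01000019v1 (6584055 to 6585580) had 37.4 and 38.7 in sperm and 2.99 and 2.95 in muscle, and lay within 10 kb of one of the widest sperm-private NMIs named above. The remaining 2 of the 5 largest lay on PIZI01009734v1 and PIZI01000021v1, with log2 differences of 3.43 and 3.36. All 5 were called in every embryo library.

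NMIs called lower in sperm had median fold enrichments of 6.85 and 7.45 in the sperm libraries and 18.0 and 16.2 in the muscle libraries. The largest difference was at PIZI01000010v1, 4442545 to 4443796, with fold enrichments of 2.75 and 2.76 in sperm, against 36.8 and 30.6 in muscle (log2 difference -3.85, SE 0.185, limma adjusted p = 0.0025). It was called in all libraries of the 4 other tissues. On PIZI01000036v1 (397149 to 398842) the values were 3.20 and 2.98 in sperm and 33.2 and 32.6 in muscle. The log2 differences of the other 3, on PIZI01000021v1, PIZI01000025v1 and PIZI01000023v1, were -3.55, -3.53 and -3.43. The NMI on PIZI01000023v1 was called in every brain and PBMC library and in no embryo library. Those on PIZI01000010v1, PIZI01000036v1, PIZI01000021v1 and PIZI01000025v1 were called in every embryo library. The NMI on PIZI01000025v1 was called in both brain libraries and in no PBMC library.

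The 4 other tissues were not used to define these classes and show where else the NMIs were found. An NMI was counted in a tissue when it overlapped bases common to both of that tissue's replicates. Sperm-private NMIs were found in day 1 embryos in 45.9% of cases and in day 2 embryos in 19.5%, whereas muscle-private NMIs were found there in 7.40% and 3.23%. In brain the shares were 31.9% of sperm-private and 65.3% of muscle-private NMIs, and in PBMCs 17.2% and 46.3%. In single libraries, the share in day 1 was 60.8% and 57.4% for sperm-private against 12.5% and 11.9% for muscle-private NMIs, and the share in brain was 33.8% and 47.5% against 68.6% and 73.2%. In each of the 4 tissues, the values of the replicates for one class did not overlap those for the other.

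Sperm-private NMIs found in an embryo stage and in neither brain nor PBMCs made up 28.2% of the class, against 1.48% for muscle-private NMIs. Those found in brain or PBMCs and in no embryo stage made up 17.3% of sperm-private and 64.0% of muscle-private NMIs. In none of the 4 tissues, an NMI was found for 35.0% of the sperm-private and 27.8% of the muscle-private class. Shared NMIs were found in day 1 in 82.8%, in day 2 in 68.2%, in brain in 92.5% and in PBMCs in 82.4% of cases.

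The day 2 lists were the shortest of the series (89979 and 90027 NMIs), and the brain lists covered the most bases. The study's mapping table gives far fewer uniquely mapped read pairs for the embryo libraries than for the adult ones, so an NMI missing from an embryo list may be one that was not detectable at this depth. With 89979 NMIs in every library, sperm-private NMIs were found in day 1 in 60.5%, in day 2 in 53.2%, in brain in 33.6% and in PBMCs in 28.4% of cases. Muscle-private NMIs were then found in 10.2%, 13.6%, 64.3% and 56.4% of cases. The shares of both private classes in day 2, and that of sperm-private NMIs in PBMCs, were thus more than 1.5 times as high in equally long lists. The day 2 lists themselves were hardly cut. The classes were formed anew from the cut lists, so these shares are of other sets of private NMIs (21423 sperm-private and 19110 muscle-private). Whether NMIs of the classes as deposited were missed in embryo lists because of depth was therefore not tested. The order of the sperm-private and muscle-private classes was unchanged in each of the 4 tissues.

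**Figure D3:**
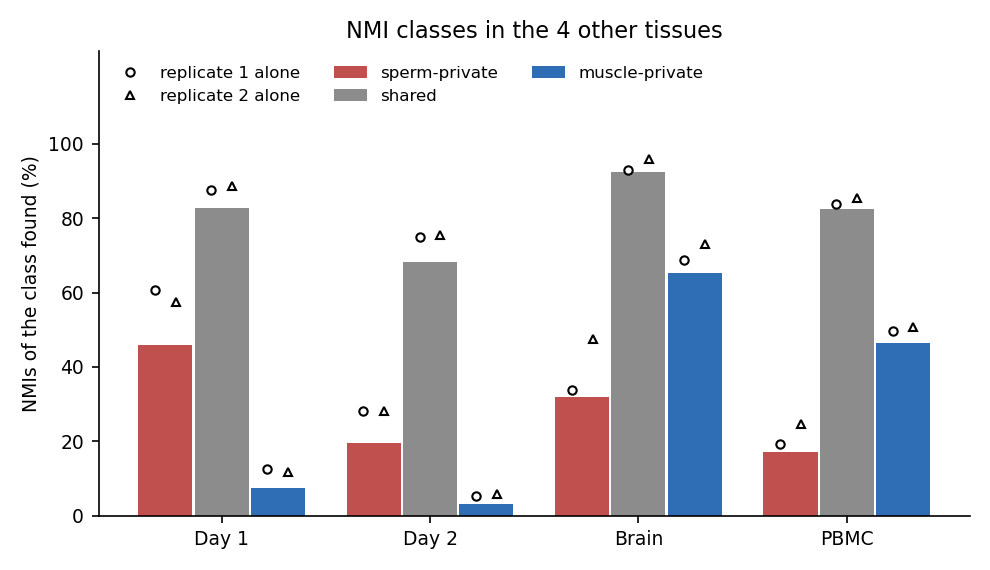
Share of sperm-private (red), shared (grey) and muscle-private (blue) NMIs found in day 1 embryos, day 2 embryos, brain and PBMCs, in percent. Bars count bases common to both replicates, and circles and triangles give replicates 1 and 2 alone; sperm-private NMIs reached 45.9% in day 1 against 7.40% for muscle-private ones, and 31.9% against 65.3% in brain.

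Shared NMIs that differed in height were divided over the other tissues in a like manner. Of those higher in sperm, 95.0% were found in day 1, 82.3% in day 2, 85.0% in brain and 67.2% in PBMCs. Of those lower in sperm, 59.3% were found in day 1, 48.9% in day 2, 94.8% in brain and 87.4% in PBMCs. Over all shared NMIs tested, the shares were 82.8%, 68.2%, 92.5% and 82.4%. A sperm-private NMI lay directly beside 38.8% of the NMIs higher in sperm, 21.4% of those lower in sperm and 27.7% of all tested. A muscle-private NMI lay directly beside 19.0% of the NMIs higher in sperm, 38.0% of those lower in sperm and 23.3% of all tested.

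Private NMIs of the tissues differed in how they were spread along the scaffolds. The next NMI after a sperm-private one was again sperm-private in 24.8% of cases, when 15.9% of all NMIs were followed by a sperm-private one. For muscle-private NMIs, the next was again muscle-private in 50.4%, when 20.9% of all NMIs were followed by a muscle-private one. The 24372 sperm-private NMIs with a muscle NMI on their scaffold lay a median of 1487 bp from the nearest one. Of these, 18.4% lay under 500 bp and 8.22% lay 10 kb or more away. The other 1011 had none on their scaffold. The 31972 muscle-private NMIs with a sperm NMI on their scaffold lay a median of 4718.5 bp from the nearest one. Of these, 8.20% lay under 500 bp and 29.4% lay 10 kb or more away, while the other 820 had none on their scaffold. Distances are of the lists as deposited and were not repeated with equally long lists.

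A run is a series of consecutive merged NMIs that are private to 1 tissue. Single NMIs made up 59.7% of the sperm-private and 32.8% of the muscle-private class. Runs of 10 or more held 78 sperm-private NMIs (0.307%, in 6 runs of up to 16) and 3885 muscle-private NMIs (11.8%, in 277 runs of up to 34). In lists of 124181 NMIs, these shares were 0.269% and 10.04%. The difference in clustering thus remained where the number of private NMIs was slightly larger in sperm. Without single libraries, the share in sperm ran between 0.200% (without muscle replicate 2) and 0.378% (without sperm replicate 1), and that in muscle between 11.7% and 12.6%.

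**Figure D4:**
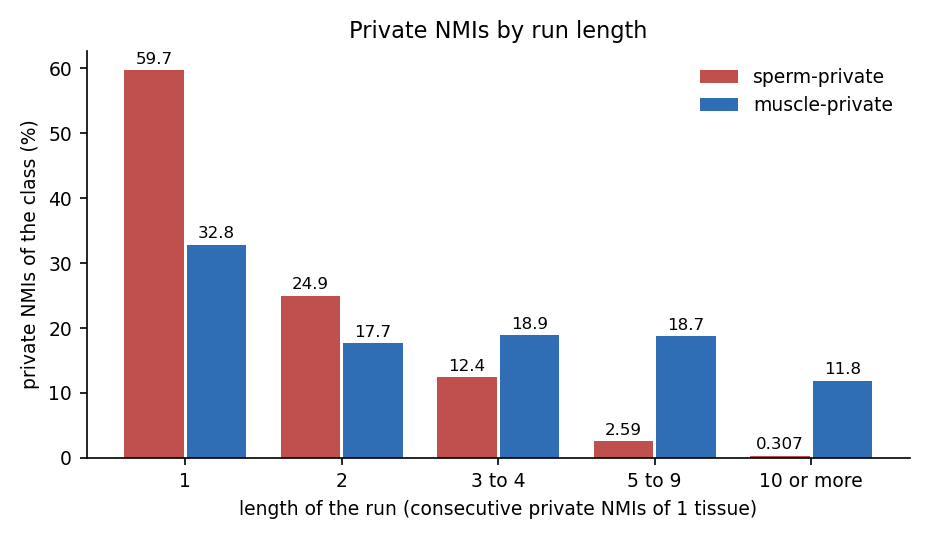
Share of the sperm-private (red) and muscle-private (blue) NMIs that lie in runs of 1, 2, 3 to 4, 5 to 9 and 10 or more consecutive private NMIs, in percent of each class. Single NMIs are the largest group of the sperm-private class (59.7%), whereas 11.8% of the muscle-private and 0.307% of the sperm-private NMIs lie in runs of 10 or more.

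NMIs in long muscle-private runs differed from single muscle-private NMIs in several measures. In runs of 10 or more, 98.0% had no NMI in either sperm library, compared with 70.0% of single ones. A muscle-private run ends at any merged NMI with bases common to both sperm libraries. This measure is therefore not independent of the length of the run. Their median fold enrichment in muscle was 9.70 and 9.43, compared with 6.70 and 6.47 for single NMIs, and their median width was 392 bp compared with 302 bp. They were found in day 1 in 2.06% of cases, compared with 11.8% for single NMIs, in brain in 71.9% compared with 63.3%, and in PBMCs in 52.5% compared with 43.3%. In sperm-private runs of 10 or more, 59.0% of the 78 NMIs were found in day 1 and 39.7% in day 2, compared with 43.6% and 17.4% for single sperm-private NMIs. Their share in brain was 24.4%, compared with 33.8% for single ones.

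The longest muscle-private run held 34 NMIs over 113931 bp of PIZI01000031v1 (4769390 to 4883320). The sperm libraries held 0 and 1 NMIs in it and the muscle libraries 36 and 35. Brain had 24 NMIs there and PBMCs 22, whereas day 1 and day 2 had 1 each. For this and the other runs named, sperm and muscle NMIs are counted in each library. Those of the 4 other tissues are stretches common to both replicates, so these counts are not directly comparable. A second run of 34 NMIs on PIZI01000084v1 (161894 to 251730) held 0 and 2 sperm NMIs, and 37 and 35 muscle NMIs. The run on PIZI01000020v1 (11141973 to 11207466) held no NMI of either sperm library, 33 and 34 NMIs of the muscle libraries, 26 of brain and 29 of PBMCs. A run of 33 NMIs on PIZI01000046v1 differed between the adult tissues, with 27 NMIs in brain and 4 in PBMCs.

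**Figure D5:**
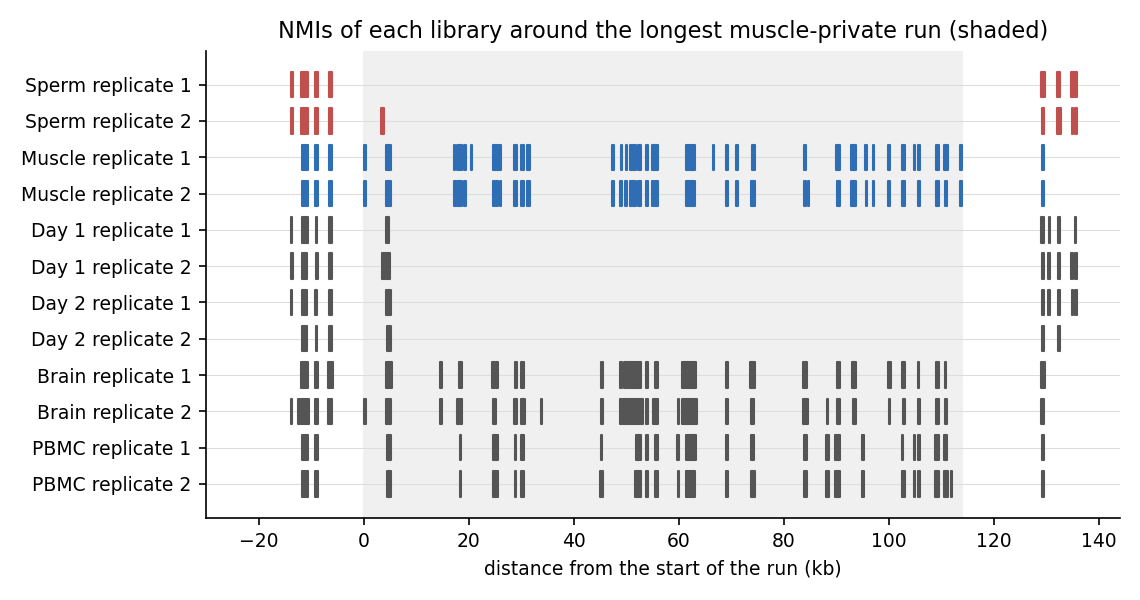
NMIs of each of the 12 libraries along the longest muscle-private run (shaded, 34 merged NMIs) and the sequence on both sides, by distance from the start of the run in kb. Each block is 1 NMI as deposited. The sperm rows hold 0 and 1 NMIs in the shaded stretch and the muscle rows 36 and 35, and sperm NMIs are present on both sides of it.

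The longest sperm-private run held 16 NMIs over 148787 bp of PIZI01000126v1 (390215 to 539001), where the sperm libraries had 16 and 20 NMIs and the muscle libraries 2 and 1. Day 1 had 11 NMIs common to both replicates in it, day 2 had 4, brain 1 and PBMCs 4. A run of 15 NMIs was denser, within 26634 bp of PIZI01000029v1 (1896044 to 1922677), with 14 NMIs in day 1, 10 in day 2, 7 in brain and 1 in PBMCs. The run of 12 NMIs on PIZI01000037v1 (10884955 to 10931561) had no NMI in either muscle library. It had none common to both replicates in brain or PBMCs, and 5 in day 1 and 3 in day 2.

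In windows of 100 kb, 13966 of which held a merged NMI, 10 or more sperm-private NMIs were present in 262 windows and 10 or more muscle-private NMIs in 624. Windows with 5 or more sperm-private NMIs and no muscle NMI numbered 4, and windows with 5 or more muscle-private NMIs and no sperm NMI numbered 37. Both kinds were also found together, since 372 windows held 5 or more of each. The window counts are of the lists as deposited and were not repeated with equally long lists. The windows with most sperm-private NMIs held 26, on PIZI01000029v1 (1900001 to 2000000) beside 6 shared and 2 muscle-private NMIs, and on PIZI01000060v1 (1000001 to 1100000) beside 7 shared ones. The windows with most muscle-private NMIs held 41, on PIZI01000020v1 (11100001 to 11200000) beside 2 shared NMIs and on PIZI01000098v1 (600001 to 700000) beside 4, with no sperm-private NMI in either.

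Stretches of 50 kb or more without a sperm NMI numbered 2848 and covered 295.8 Mb. They held 9206 muscle NMIs, with 5 or more in 654 of the 2848 gaps. Stretches of 50 kb or more without a muscle NMI numbered 2034 and covered 232.5 Mb. They held 3493 sperm NMIs, with 5 or more in 86 of the 2034 gaps. Over all scaffolds, muscle had 135103 NMI stretches and sperm 125193. Since the gaps differ in number and length, these counts are not given as a difference between the tissues. Most long gaps of one tissue held some NMI of the other, however few. The gaps in sperm held 9206 of the 135103 muscle stretches. The gaps in muscle held 3493 of the 125193 sperm stretches. Most NMIs of each tissue thus lay outside the long gaps of the other. Empty in both tissues were 625 of the gaps in sperm (21.9%) and 360 of those in muscle (17.7%). Gaps were likewise counted in the lists as deposited alone.

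NMIs were found on 5159 scaffolds, and the 86 scaffolds with 200 or more merged NMIs held 86.3% of them. On these 86, sperm-private NMIs made up between 4.09% and 19.4% (median 15.5%) and muscle-private NMIs between 14.2% and 47.1% (median 21.7%). Sperm-private NMIs outnumbered muscle-private ones on 9 of the 86. These scaffold shares are of the lists as deposited and were not repeated with equally long lists. Scaffold PIZI01000098v1 stood apart, with 47.1% of its 342 NMIs muscle-private and 6.73% sperm-private; its sperm libraries held 183 and 204 NMIs and its muscle libraries 333 and 339. At the other end, PIZI01000069v1 had 19.4% sperm-private and 14.2% muscle-private NMIs of 408.

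Of the 5159 scaffolds with a merged NMI, 695 had sperm NMIs and no muscle NMI. They held 841 of the 125193 sperm NMIs, with 1 NMI on 583 of them and 3 or more on 22. The reverse held for 441 scaffolds with 596 of the 135103 muscle NMIs, with 1 NMI on 335 and 3 or more on 31. The median last NMI position was 6908 bp on the sperm scaffolds and 7714 bp on the muscle scaffolds. In lists of 124181 NMIs per library, such scaffolds numbered 749 for sperm and 397 for muscle. The values below are of the lists as deposited. NMIs on the sperm scaffolds were found in day 1 in 58.9%, in day 2 in 35.7%, in brain in 13.9% and in PBMCs in 8.80% of cases. NMIs on the muscle scaffolds were found in day 1 in 7.38%, in day 2 in 5.03%, in brain in 59.6% and in PBMCs in 44.6%. The sperm scaffold with most NMIs was PIZI01000490v1, with 7 and 9 NMIs in the sperm libraries, 10 and 8 in day 1, 6 and 5 in day 2, and none in any muscle, brain or PBMC library. Next was PIZI01007629v1, with 5 and 6 sperm NMIs, 4 and 5 in day 1 and none in adult somatic libraries, followed by PIZI01006020v1 with 4 in each sperm library. PIZI01006020v1 also held 1 NMI in brain replicate 2 and 1 in each PBMC library. The highest fold enrichment in the sperm libraries was 3.87 and 6.28 on PIZI01000490v1, 2.48 and 3.44 on PIZI01007629v1, and 7.61 and 8.64 on PIZI01006020v1. The 3 muscle scaffolds with most NMIs, PIZI01002457v1, PIZI01002617v1 and PIZI01005166v1, had 5 or 6 NMIs in each muscle library and none in any sperm or embryo library. On PIZI01002457v1 the highest fold enrichment was 36.6 and 24.5, and brain held 4 NMIs in each library.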

How the data were processed

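Trimming (trimmomatic), alignment to petMar3 (bowtie2), removal of duplicates (Picard) and peak calling in each library (macs2) were done by the authors. How the caller was set, and whether it used the 5 input libraries, is not given in the sources used here. PBMCs are the only tissue whose labels name no input library, so their lists may have been called on another basis. The effect of this on the PBMC shares was not tested. The deposited lists give each peak's position, its fold enrichment (a ratio), its −log10 p-value and −log10 q-value, and a score that was not used. Every listed q-value was under 0.05.

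The 12 lists were assigned by tissue and replicate from the labels, and input libraries were not analysed here. Bases common to both replicates (overlap of 1 bp or more) were joined over sperm and muscle in Python 3.11.15 with NumPy 2.4.6. For each shared NMI and library, the highest fold enrichment was taken as log2, quantile-normalized and tested with limma 3.58.1 in R 4.3.3 (eBayes with trend). Interval functions and the fit were tested on simulated data. Alternatives were list length, threshold, overlap, joining, normalization and each library left out. Where a library was left out of the classes, all NMIs of the remaining replicate stood for that tissue. NMIs were named by rule: the 5 widest per class, the 5 largest called differences per direction, the 3 scaffolds and 2 windows with most private NMIs per tissue. The longest runs, the scaffolds at the ends of the range and other examples were chosen after their values were seen. The classes and lists were chosen with earlier results of these data known. Positions are counted from 1. Genes and sequences are not given, since the petMar3 genome was not used here.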

Additional observations from a re-analysis of the deposited data

How the results depend on the processing

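Of 143 alternative values, 42 moved by more than a set limit. For counts and for the shares of wider NMIs, the limit was a change of over 1.5 times. For the Jaccard index it was the SD of the 4 sperm and muscle pairs, which share libraries. For the other values it was the SD of 2 replicate values, which is itself a rough measure. With 89979 NMIs per library, shared NMIs numbered 63863 and muscle-private NMIs 19110, the ratio of sperm-private to muscle-private NMIs was 1.12 and the mean Jaccard index 0.580. At a −log10 q of 30 or more these 4 values were 57531, 14347, 1.72 and 0.564. Ranking by fold enrichment gave an index of 0.585. Leaving out single libraries gave 22580 to 38113 sperm-private NMIs and ratios of 0.614 to 1.34. A sperm-private NMI was followed by another in 27.9% in lists of 124181, and in 22.7 to 29.7% without single libraries. A muscle-private NMI was followed by another in 48.6% in those lists, 47.2% at a −log10 q of 10 or more, 53.0% within 10 kb, and 50.4 to 51.4% without single libraries. Runs of 10 or more held 0.269% (lists of 124181) and 0.2701% (−log10 q of 10 or more) of sperm-private and 10.04% and 9.45% of muscle-private NMIs, or 0.200 to 0.378% and 11.7 to 12.6% without single libraries. The alternatives for runs, widths and other tissues were chosen after seeing the data. In equally long lists, 60.5%, 53.2% and 28.4% of sperm-private NMIs lay in day 1, day 2 and PBMC NMIs, and 10.2%, 13.6% and 56.4% of muscle-private ones. With no NMI allowed in any library of the other tissue, 19.0% of sperm-private NMIs were found in day 2, and 5.20% and 2.79% of muscle-private ones in day 1 and day 2. The cause of these shifts was not tested. Counts of higher and lower NMIs were 13969 and 4237 without normalization, and 19493 and 18176 with no minimum fold. The replicate numbers carry no label of a shared animal. Deviations of same-numbered replicates correlated with r = 0.21 across 98617 shared NMIs, which are not independent replicates. With the replicate number as a block, 8369 NMIs were higher and 7744 lower. Without single libraries, 7901 to 9436 were higher and 6252 to 9341 lower. The Jaccard index of bases in either replicate was not run, since the index is taken between single libraries.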
